A study of Mus musculus with 4 samples.

Results

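The genes described here encode the proteins of the mitochondrial ribosome, read on arrays of follicular helper T (TFH) cells with and without Rictor. Members were the probe sets of the deposited table whose annotation gives a single gene symbol beginning with Mrpl or Mrps followed by a digit, with 1 probe set per gene, the brightest by its mean over the 4 arrays. The rule gave 76 genes of 18193 on the array, 47 with an Mrpl symbol (large subunit) and 29 with an Mrps symbol (small subunit). It used the level of a probe set over all arrays but not the difference between the groups. The 76 genes were read by 156 probe sets in all, and 42 of them had more than 1. In 4 further probe sets a mitoribosomal symbol stands beside that of another gene, and these were not read.

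The tested cells were Rictor-null TFH cells from Rictor fl/fl mice that carry a Cd4-Cre transgene, and the cells they were set against were WT TFH cells from Rictor fl/fl littermates without Cre. Rictor is the subunit that defines mTOR complex 2 (mTORC2). Cd4-Cre acts in the thymus before CD4 and CD8 T cells part, so that CD8 T cells of these mice lose Rictor too. Mice of both sexes, 6 to 10 weeks old, were infected with the Armstrong strain of LCMV, and TFH cells were sorted from the spleen at day 8. There were 2 arrays of Rictor-null TFH cells and 2 of WT TFH cells, each labelled a separate pool of at least 5 mice. A legend of the study instead gives 6 Rictor-null and 4 WT mice per group. If the arrays are separate pools, a p-value here reflects only how far such pools lie apart. The study sorted these cells to see how mTORC2 acts on transcription in TFH cells.

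Mammalian mitochondria keep their own ribosome, which translates only the few proteins encoded by mitochondrial DNA, all of them subunits of the respiratory chain and of ATP synthase. Its ribosomal RNAs come from mitochondrial DNA, whereas every one of its proteins is encoded in the nucleus, made in the cytosol and imported. Activated T cells enlarge their mitochondria when they divide, and mitochondrial translation is needed to build the respiratory complexes for it. The large subunit (39S) forms peptide bonds and releases the nascent chain at the inner membrane, and the small subunit (28S) reads the messenger. Many of the proteins descend from bacterial ribosomal proteins, and the rest are found only in mitochondria.

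The values are linear intensities read from 1-colour Affymetrix mouse arrays, with medians of 20.0 to 20.4 on the 4 arrays. They were compared as log2(intensity + 16) with limma over all 18193 genes, so that a log2 fold change understates the change of a dim gene. Rictor was read by 5 probe sets. The brightest read 267 and 279 in Rictor-null arrays and 334 and 303 in WT arrays, with a log2 fold change of -0.21 (adjusted p = 0.0366 from limma), and the other 4 had log2 fold changes between -0.03 and 0.11. The exons these probe sets cover are not given in the sources used here, so that they need not check the deletion. All 10 T cell and TFH markers lay above the median intensity, but 6 of the 10 were lower in Rictor-null TFH cells and 0 higher. Of the 10714 genes at or above that intensity, 11.3% were called lower and 20.1% higher at an adjusted p under 0.05. Bcl6, the factor that directs the TFH fate, read 208 and 231 in Rictor-null arrays and 467 and 408 in WT arrays (log2 fold change -0.94, limma adjusted p = 4.44e-06). Il21, Cxcr5, Pdcd1, Cd3e and Cd4 were at -0.90, -0.70, -0.55, -0.32 and -0.26, whereas Icos, Cd3g, Cd200 and Sh2d1a did not pass, at 0.0033 to 0.11.

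Mitoribosomal genes were mostly higher in Rictor-null TFH cells, by small amounts. Of the 76 members, 42 rose at an adjusted p under 0.05 from limma, 0 fell and 34 did not pass. Over all 18193 genes the same test called 12.5% higher and 7.19% lower. All 76 members lay above the median intensity of the probe sets, and among the 10714 genes at or above it 20.1% were called higher and 11.3% lower. The median log2 fold change of the members was 0.25, a 1.19-fold difference, against 0.0068 over all genes tested and 0.03 over the genes at or above the median intensity. The members that rose ran from 0.17 to 0.67 on the log2 scale, and 3 of the 76 reached 1.5-fold on that scale (5 by the plain ratio of mean intensities). The 2 Rictor-null arrays lay above both WT arrays in 60 members, where 30.6% of all genes and 39.5% of the brighter ones did so, and below both in 4, where the shares were 24.9% and 27.4%. Arrays of bulk sorted cells cannot tell more RNA per cell from more cells of a kind that holds more of it.

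**Figure D1:**
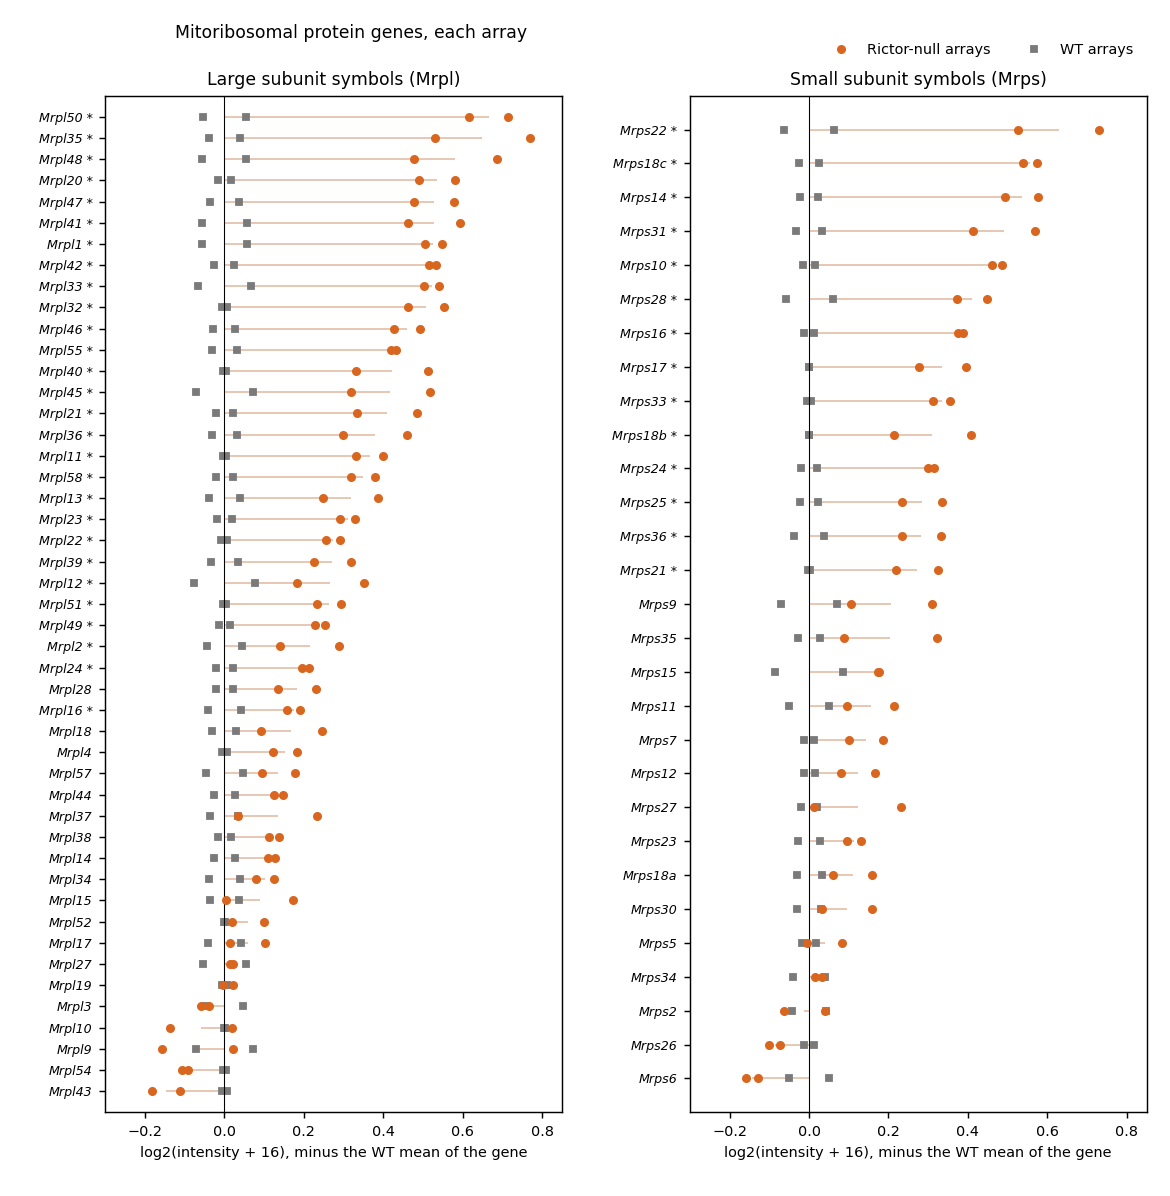
Level of each mitoribosomal gene in each array (x axis, log2 of intensity + 16, minus the WT mean of that gene), with Mrpl symbols on the left, Mrps symbols on the right and genes ordered by their difference. Orange circles are the 2 Rictor-null arrays, grey squares the 2 WT arrays, each line runs to the Rictor-null mean, and an asterisk marks the 42 genes that passed the test, from Mrpl50 at 0.67 down to Mrpl16 at 0.17.

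The largest difference in the large subunit was that of Mrpl50, a protein found only in mitochondrial ribosomes. Its intensity was 189 and 176 in the Rictor-null arrays and 104 and 114 in WT arrays (log2 fold change 0.67 ± 0.07, SE, limma adjusted p = 4.88e-05). Mrpl35, the counterpart of the bacterial protein L35, read 920.1 and 777 in Rictor-null arrays against 548 and 519 in WT arrays (log2 fold change 0.65, limma adjusted p = 4.29e-05). Both Rictor-null arrays stood above both WT arrays for each gene, but those of Mrpl35 lay further from each other than the WT arrays did. Mrpl48 belongs to the central protuberance at the top of the large subunit. It read 419 and 361 in Rictor-null and 265 and 245 in WT arrays, a log2 fold change of 0.58 (adjusted p = 0.000122 from limma). Mrpl20, an early-binding protein of the bacterial large subunit, read 561 and 526 in Rictor-null arrays against 365 and 374 in WT arrays, a log2 fold change of 0.54 (adjusted p = 3.21e-05 from limma). In all 4 genes the gap between the groups was wider than the gap between the arrays of a group.

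Other proteins of the central protuberance rose as well. Mrpl46 read 440.4 and 419.9 in Rictor-null arrays and 302 and 315 in WT arrays. Mrpl40 read 715 and 629.7 in Rictor-null and 495 and 499 in WT arrays. Mrpl55, the mitochondrial form of bacterial L31, read 213 and 211 in Rictor-null and 150.0 and 157 in WT arrays. These 3 genes had log2 fold changes of 0.46, 0.42 and 0.43, and limma gave adjusted p-values of 0.000104, 0.00034 and 0.000476. Not every protein of that region passed. Mrpl18 was at a log2 fold change of 0.17 (adjusted p = 0.0642), Mrpl38 at 0.12 (adjusted p = 0.35) and Mrpl27 at 0.02 (adjusted p = 0.879), the last with intensities of 917 and 922 in Rictor-null arrays that lay between the WT values of 944 and 874.

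The stalks of the large subunit guide translation factors and transfer RNA. Mrpl1, of the L1 stalk on the exit side, read 171 and 165 in Rictor-null arrays and 117 and 107 in WT arrays, a log2 fold change of 0.53 ± 0.07 (SE, limma adjusted p = 0.000229). On the factor side, Mrpl11 read 404 and 384 in Rictor-null and 303 and 301 in WT arrays, a log2 fold change of 0.37 (adjusted p = 0.000531). Mrpl12, which recruits translation factors and also binds the mitochondrial RNA polymerase, read 402 and 356 in Rictor-null and 295 and 329 in WT arrays, a log2 fold change of 0.27 (adjusted p = 0.0188). Mrpl10, the protein that holds Mrpl12 on the ribosome, read 279.9 and 314 in Rictor-null and 309.5 and 309.6 in WT arrays. Its groups overlapped and its log2 fold change was -0.06 (95% confidence interval -0.20 to 0.08, adjusted p = 0.618), so that members of 1 stalk had unlike values.

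The proteins around the site of peptide bond formation and the exit tunnel were divided in the same way. Mrpl2, at the catalytic centre, read 337 and 303 in Rictor-null arrays and 264 and 282 in WT arrays, a log2 fold change of 0.21 (adjusted p = 0.0383 from limma). Mrpl3, which reaches toward that centre and is mutated in a human cardiomyopathy, read 271 and 275 in Rictor-null arrays against 293 and 273 in WT arrays, overlapping, at -0.05 (adjusted p = 0.668). Mrpl4, in the tunnel wall, was at 0.15 (adjusted p = 0.0533), with both Rictor-null arrays above both WT arrays. Its partner in the wall, Mrpl22, read 759 and 739.6 in Rictor-null and 620.5 and 614 in WT arrays and passed at 0.27 (adjusted p = 0.00144). At the tunnel's end 4 of the 5 proteins described here rose. Mrpl23, Mrpl24 and Mrpl47, counterparts of bacterial L23, L24 and L29, were at log2 fold changes of 0.31, 0.20 and 0.53. Mrpl45, which anchors the ribosome to the inner membrane, read 463 and 402 in Rictor-null and 336 and 303 in WT arrays, a log2 fold change of 0.42 (adjusted p = 0.00127). Mrpl17, the counterpart of bacterial L17, read 394 and 370.0 in Rictor-null and 377 and 355 in WT arrays, overlapping, at 0.06 (adjusted p = 0.586).

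The small basic proteins of the bacterial set, Mrpl32 to Mrpl36, were read 5 of 5, and 4 of them rose. Mrpl32, whose processing by an inner membrane protease lets it join the ribosome in yeast and mouse, read 1180.2 and 1107 in Rictor-null arrays and 803 and 795 in WT arrays. Mrpl33 read 413 and 402 in Rictor-null and 265 and 293 in WT arrays. Mrpl36 read 296 and 263 in Rictor-null and 216 and 206 in WT arrays. Their log2 fold changes were 0.51, 0.52 and 0.38, all with the groups apart. Mrpl34 was at 0.10 (adjusted p = 0.243 from limma) and did not pass, although its groups did not overlap either.

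Proteins with no counterpart in the bacterial ribosome were among those that rose. Mrpl41 read 992 and 905 in Rictor-null arrays and 679.7 and 627 in WT arrays. Mrpl42 read 956 and 943 in Rictor-null and 667 and 644 in WT arrays. Both were at log2 fold changes near 0.5 (0.53 and 0.52, adjusted p = 5.04e-05 and 1.37e-05 from limma). Mrpl58, which descends from a bacterial release factor and not from a ribosomal protein, and frees stalled chains, read 1120.1 and 1073 in Rictor-null arrays and 869 and 845 in WT arrays, a log2 fold change of 0.35 (adjusted p = 0.000215). Mrpl44, which resembles RNase III and is mutated in a human cardiomyopathy, read 648 and 638 in Rictor-null and 595 and 573 in WT arrays. Its groups did not overlap, but its log2 fold change of 0.14 did not pass (adjusted p = 0.0819).

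In the small subunit the largest difference was that of Mrps22, a protein found only in mitochondria and mutated in human respiratory chain deficiency. It read 345 and 298 in Rictor-null arrays and 192 and 211 in WT arrays, a log2 fold change of 0.63 ± 0.08 (SE, limma adjusted p = 8.64e-05). Mrps14, a protein of the head, read 1757 and 1658 in Rictor-null and 1191 and 1155 in WT arrays, a log2 fold change of 0.54 (adjusted p = 9.12e-06). Mrps10, also of the head, read 242 and 237 in Rictor-null and 166 and 170.1 in WT arrays, a log2 fold change of 0.47 (adjusted p = 0.000165). Mrps31, without a bacterial counterpart, read 197 and 175 in Rictor-null and 131 and 124 in WT arrays, at 0.49 (adjusted p = 0.000454). In each of these genes the lower Rictor-null array was above the higher WT array. Mrps16, the first mitoribosomal gene linked to a human disease, read 1347 and 1335 in Rictor-null and 1015 and 1035 in WT arrays, a log2 fold change of 0.38 ± 0.04 (SE, limma adjusted p = 6.62e-05).

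The path of the messenger through the small subunit showed both kinds of value. Mrps24, the counterpart of bacterial S3 at the entry, read 791 and 799.8 in Rictor-null arrays and 631 and 649 in WT arrays and passed at 0.31 (adjusted p = 0.000619 from limma). Mrps28, which sits where bacterial S1 would be, read 242 and 229 in Rictor-null and 181 and 166 in WT arrays and passed at 0.41 (adjusted p = 0.000881). Mrps5, at the entry beside Mrps24, read 211 and 225 in Rictor-null and 214 and 209 in WT arrays. It overlapped between the groups, with a log2 fold change of 0.04 (adjusted p = 0.765). Mrps12, which monitors the codon in the decoding centre, read 408 and 384 in Rictor-null and 365 and 358 in WT arrays. That difference of 0.12 on the log2 scale did not pass (adjusted p = 0.164), nor did those of Mrps7, Mrps9 and Mrps11, at 0.14, 0.21 and 0.16.

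Mammals have 3 genes related to that of bacterial S18, and the 3 proteins take different places in the ribosome. Mrps18c holds the place of the bacterial protein. It read 1048 and 1023 in Rictor-null arrays and 712 and 686 in WT arrays, a log2 fold change of 0.56 ± 0.05 (SE, limma adjusted p = 8.54e-06). Mrps18b, elsewhere in the small subunit, read 221 and 192 in Rictor-null and 163 and 163 in WT arrays, at 0.31 (standard error 0.07, adjusted p = 0.00967). Mrps18a, which lies in the large subunit in the human structure, read 387 and 360.4 in Rictor-null and 353 and 337 in WT arrays, at 0.11 (standard error 0.06, adjusted p = 0.248). The 3 values thus differed in size, with 2 that passed and 1 that did not, and the differences between the paralogs were not tested. A pair of Mrps symbols belong elsewhere by structure. Mrps30 lies in the large subunit and read 331 and 363 in Rictor-null and 330.5 and 317 in WT arrays, at 0.10 (adjusted p = 0.346). Mrps36, now known as a subunit of the 2-oxoglutarate dehydrogenase complex, read 383 and 357 in Rictor-null and 293 and 309 in WT arrays, at 0.28 (adjusted p = 0.00492).

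No member passed as lower in limma, although 2, Mrpl43 and Mrps6, had an unadjusted p under 0.05. Mrpl43 had the lowest log2 fold change, -0.15 (95% confidence interval -0.26 to -0.03, adjusted p = 0.0707 from limma), with 502 and 478 in Rictor-null arrays and 542 and 546 in WT arrays. Mrps6, the counterpart of bacterial S6, read 752 and 736 in Rictor-null and 852 and 795 in WT arrays, at -0.14 (adjusted p = 0.072). These 2 genes, with Mrpl54 at -0.10 and Mrps26 at -0.09, were the 4 members whose Rictor-null arrays lay below both WT arrays. Mrpl43 and Mrps6 passed as lower when the arrays were centred on their medians and when dim genes were left out of the fit, as the 2 lower members in both cases. At the threshold, Mrpl16 passed at 0.17 (adjusted p = 0.0464) and Mrpl28 did not at 0.18 (adjusted p = 0.0524).

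Both subunits held members that rose and members that did not. Among Mrpl genes 28 of 47 rose (59.6%), with a median log2 fold change of 0.26 and a range of -0.15 to 0.67. Among Mrps genes 14 of 29 rose (48.3%), with a median of 0.21 and a range of -0.14 to 0.63. When Mrps30 and Mrps18a were counted with the large subunit, where they lie, and Mrps36 was left out, 28 of 49 large subunit genes (57.1%) and 13 of 26 small subunit genes (50.0%) rose, with medians of 0.24 in both. Genes whose protein holds the place of a bacterial ribosomal protein rose in 25 of 45 cases (55.6%, median 0.21), and the other ribosomal genes in 16 of 30 (53.3%, median 0.25). The 30 include Mrps18a, Mrps18b and Mrpl58, which have bacterial relatives but sit at places of their own. No test of these differences was made. Among these other genes 5 of 12 with an Mrps symbol rose, the lowest share of the 4 combinations, and the highest was 11 of 18 with an Mrpl symbol.

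The count of members depended on the WT arrays. Without WT replicate 2 the members called higher were 24 (16 Mrpl and 8 Mrps), and without WT replicate 1 they were 28 (19 Mrpl and 9 Mrps), all of them among the 42. Over all genes, too, fewer passed with a WT array left out, 1424 without replicate 2 and 1462 without replicate 1, against 3591 with 4 arrays. The median log2 fold change of the members stayed between 0.22 and 0.29 with each array left out. The calls of 23 members held with each array left out in turn, among them Mrpl50, Mrpl35, Mrps22, Mrpl48, Mrps18c, Mrpl20 and Mrps14. The Rictor-null arrays were not alike for these genes. Replicate 1 was above replicate 2 in 61 of the 76 members, with a median difference of 0.07 on the log2 scale, and in 39 of the 42 that rose. Over all genes it was above in 56.0%, with a median difference of 0.01. The 2 WT arrays differed by a median of 0.03 over the members, and leaving out Rictor-null replicate 1, the higher of its pair, left 38 members called.

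Members with several probe sets gave a second reading. The 42 such genes had 80 probe sets beside the brightest, and 10 of the 80 were called higher and 1 lower when all 45037 probe sets were tested together, where 6.38% were called higher and 4.63% lower. Their median log2 fold change was 0.06. Of the 54 at or above the median intensity, 45 were above 0, with a median of 0.11 and 10 called higher. Of the 26 below that intensity, 14 were above 0, with a median of 0.0075. Where the member itself had risen, 16 of its 17 other probe sets at or above the median intensity were above 0 and 9 of the 17 were called higher.

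Several genes were read alike by 2 probe sets. The second probe set of Mrpl41 read 672 and 648 in Rictor-null arrays and 484 and 487 in WT arrays, at a log2 fold change of 0.43 against 0.53 in the brightest. Mrpl48 was at 0.48 and 0.58, Mrps14 at 0.41 and 0.54, and Mrpl39 at 0.35 and 0.27 in its second and brightest probe sets. Others were not. The second probe set of Mrpl35 read 29.5 and 34.8 in Rictor-null and 31.9 and 33.1 in WT arrays, at -0.01, and that of Mrpl42 lay far below the median intensity, with 5.05 and 4.70 in Rictor-null against 6.41 and 6.65 in WT arrays, and was the 1 called lower. The rises of Mrpl35 and Mrpl42 therefore rest on 1 probe set each, as do those of Mrpl33, Mrpl1 and Mrpl47, whose other probe sets did not pass. No other probe set passed for Mrpl21, Mrpl49, Mrpl51, Mrpl58, Mrps10, Mrps21, Mrps25 and Mrps31 either, although that of Mrpl49 was at 0.27. Members with a single probe set have no second reading. Averaging the probe sets of each gene, 34 members rose and 0 fell, and with the second brightest probe set in place of the first in the 42 genes 34 rose and 1 fell.

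**Figure D2:**
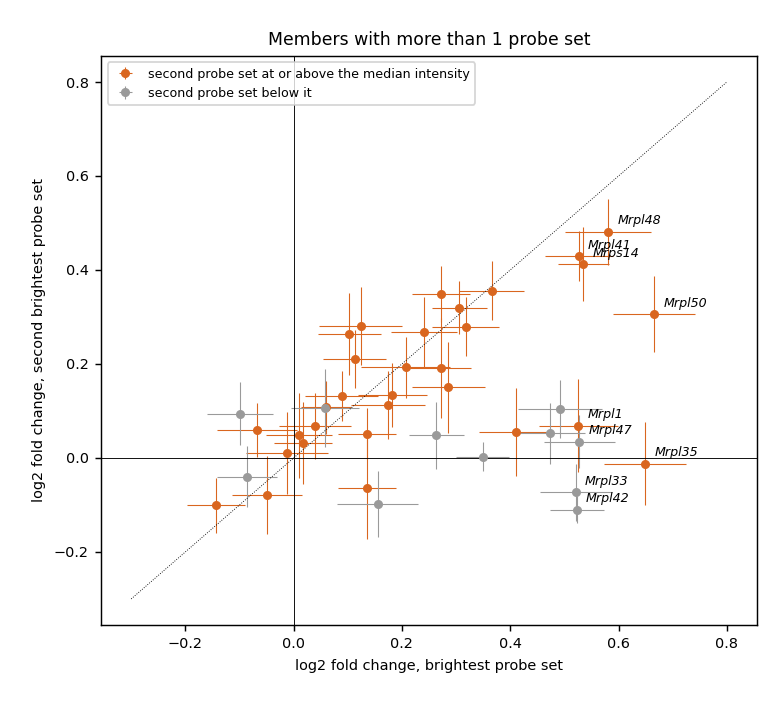
Log2 fold change, Rictor-null over WT, in the second brightest probe set (y axis) against the brightest (x axis) for the 42 members with more than 1, with standard errors as bars and the line of equality dotted. Orange points have a second probe set at or above the median intensity and lie mostly near the line, while the grey ones, among them Mrpl33 and Mrpl42, lie near 0 on the y axis.

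The promoters of the members show what some of them share beside the protein. RefSeq promoter windows of GRCm38.p6, from 250 bases before a gene's start to 50 after it, were matched by symbol for 67 of the 76 members, in 73 windows. Sites of the factors best known at nuclear genes of mitochondrial proteins were searched on both strands, the ETS family, which includes GABPA, as CCGGAAG and NRF1 as GCGCA, any base and GCGC. The ETS letters stood in 25 of the 73 windows (34.2%), against 2355 of the 18109 windows of all genes on the array. The NRF1 letters stood in 12 (16.4%), against 7.43%. Other letters were searched as well. Those of YY1 stood in 5 windows (6.85%), against 1.35%. Those of the MYC E-box, CCAAT box and SP1 stood in 9.59%, 39.7% and 53.4%, against 8.7%, 37.4% and 52.3%. The TATA box stood in 6.85%, against 9.77%, and the ZNF143 letters in 0, against 0.48%. The windows had a median G and C content of 58.7%, against 58.3% over all, and a median of 21 CG pairs, against 16. The ETS letters stood in 12 of 46 windows of members that rose and 13 of 27 windows of the others, and the NRF1 letters in 5 of 46 and 7 of 27. Windows are not separate genes. Mrpl2, Mrpl48 and Mrps16, which all rose, had more than 1 window each, and the 7 windows with the MYC E-box belong to 5 genes.

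Stretches up to 100 bases long that end just before the start site are shown for 7 genes, 5′ to 3′ on the gene's strand, with matches in capitals, to set members that rose beside members that did not. The first 3 hold the NRF1 letters, the next 3 the ETS letters, and that of Mrpl50, the gene with the largest difference, holds neither. They come from chr13:14613038-14613137 (minus strand), chr11:97315616-97315715 (plus), chr3:94443236-94443335 (plus), chr9:98601680-98601779 (minus), chr11:58171564-58171663 (plus), chr19:45006443-45006542 (minus) and chr4:49521084-49521175 (minus).
Mrpl32: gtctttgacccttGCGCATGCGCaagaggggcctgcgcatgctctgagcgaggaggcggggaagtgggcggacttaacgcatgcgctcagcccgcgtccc
Mrpl45: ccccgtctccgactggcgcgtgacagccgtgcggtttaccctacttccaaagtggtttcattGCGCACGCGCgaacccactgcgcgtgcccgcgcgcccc
Mrpl9: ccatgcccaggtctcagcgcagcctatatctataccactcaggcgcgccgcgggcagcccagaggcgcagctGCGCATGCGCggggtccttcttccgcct
Mrps22: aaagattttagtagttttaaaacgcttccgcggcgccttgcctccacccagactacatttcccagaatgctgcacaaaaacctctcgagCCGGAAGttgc
Mrpl22: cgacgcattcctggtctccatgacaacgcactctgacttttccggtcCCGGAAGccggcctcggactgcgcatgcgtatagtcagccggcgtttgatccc
Mrpl43: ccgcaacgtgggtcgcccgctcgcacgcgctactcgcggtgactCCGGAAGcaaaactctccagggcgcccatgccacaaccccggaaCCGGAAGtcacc
Mrpl50: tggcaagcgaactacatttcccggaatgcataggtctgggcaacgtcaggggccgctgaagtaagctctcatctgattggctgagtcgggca
Mrpl32 and Mrpl9 hold the same 10 letters, and their log2 fold changes were 0.51 and -0.07. Mrps22 and Mrpl43 both hold the ETS letters close to the start, at 11 and 12 bases before it, and were at 0.63 and -0.15. A match is a description of the sequence and not evidence of a bound site.

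Many members also share their start region with a neighbour. Of the 67 members with a promoter window, 25 (37.3%) had a gene on the opposite strand that starts within 1000 bases and runs the other way, against 16.3% of the 14452 measured genes with a window. All 25 neighbours were measured, and 6 of them were called higher and 1 lower in Rictor-null TFH cells. Over all genes 12.5% and 7.19% were so called, and 20.1% and 11.3% of those at or above the median intensity. The neighbours include 2 members, Mrpl46 and Mrps11, and Mrpl46 is among the 6. The median log2 fold change of the 25 was 0.15. Cyb5rl, Zfp189, Ska3, Ppp1r10, 4930473A02Rik and Zfp661 had means below the median intensity, where the log2 fold change understates a change. Mrpl46 and Mrps11 are such a pair, with starts 42 bases apart and log2 fold changes of 0.46 and 0.16, and between them stands the following stretch (chr7:78783090-78783130, on the strand of Mrpl46, the minus strand), shown as the 1 start region that serves a gene of each subunit.
Mrpl46/Mrps11: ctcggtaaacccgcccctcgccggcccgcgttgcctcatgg
Mrpl47 starts opposite Ndufb5, which encodes a subunit of respiratory complex I. Ndufb5 read 1819 and 1787 in Rictor-null arrays and 1355 and 1341 in WT arrays, a log2 fold change of 0.41 against 0.53 for Mrpl47. Sars2, which charges mitochondrial serine transfer RNA and starts opposite Mrps12, read 41.7 and 39.2 in Rictor-null and 24.0 and 32.6 in WT arrays and passed at 0.36 (adjusted p = 0.0213 from limma), while Mrps12 did not pass. Hira, a histone chaperone gene opposite Mrpl40, was at -0.14 (adjusted p = 0.282) and Mrpl40 at 0.42. The 1 lower neighbour was Gga3, a gene of vesicle transport opposite Mrps7, at -0.27 (adjusted p = 0.00975).

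**Figure D3:**
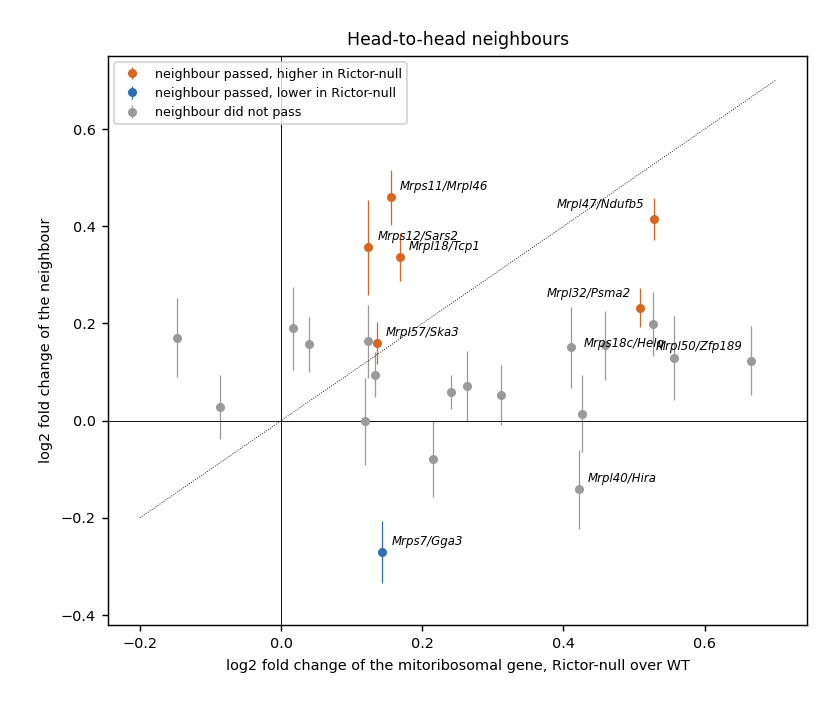
Log2 fold change, Rictor-null over WT, of the head-to-head neighbour (y axis, standard error as bars) against that of the mitoribosomal gene (x axis) for 25 members, with the line of equality dotted. Orange, blue and grey points are neighbours that passed as higher, passed as lower or did not pass. Most neighbours of strongly raised members, such as Helq beside Mrps18c, lie well below the line. Some neighbours, among them Zfp189 beside Mrpl50, had a mean below the median intensity, where the log2 fold change understates a change.

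Other genes that serve the mitochondrial ribosome were read as well. Their counts stand beside the 20.1% higher and 11.3% lower among all genes at or above the median intensity. Of 4 measured ribosomal proteins that go by other symbols, 2 rose and 0 fell. Chchd1 read 682 and 691 in Rictor-null arrays and 484 and 506 in WT arrays (log2 fold change 0.46, adjusted p = 5.04e-05 from limma), Ptcd3 was at 0.30, and Gadd45gip1 and Dap3 did not pass at 0.16 and 0.09. Of 26 genes of ribosome assembly, which modify the ribosomal RNAs or help the subunits fold, 7 rose and 0 fell, with a median of 0.16. Fastkd2, which binds the large ribosomal RNA, read 107 and 85.6 in Rictor-null and 62.1 and 61.1 in WT arrays (0.53, adjusted p = 0.00177). Malsu1, which keeps the unfinished large subunit from joining the small one, read 731 and 656 in Rictor-null and 511 and 519.7 in WT arrays (0.42, adjusted p = 0.000254).

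Of 11 further genes of mitochondrial translation, most of them soluble factors, 2 rose (18.2%) and 0 fell. The share called higher among genes at or above the median intensity was 20.1%. The median of the 11 was 0.03, with values on both sides of 0. Mrrf, which recycles ribosomes, was at 0.39 and Mtif3, an initiation factor, at 0.35, whereas the elongation factors Tufm, Tsfm and Gfm1 were at 0.03, -0.06 and -0.01 and did not pass. Mtif2, another initiation factor, had the lowest value, with 186 and 191 in Rictor-null arrays and 248.8 and 200.4 in WT arrays, which did not overlap (-0.23, adjusted p = 0.0865). Of 16 mitochondrial aminoacyl-tRNA synthetases 2 rose and 0 fell, a share of 12.5% that equals that of all genes, with a median of 0.14. Genes that copy or transcribe mitochondrial DNA or process its RNA rose in 10 of 18 cases (55.6%, median 0.24, 0 lower). Without the replication genes Polg, Polg2, Twnk and Ssbp1, 8 of 14 rose (57.1%, median 0.25). Tefm, an elongation factor of mitochondrial transcription, was at 0.66 and Slirp, which steadies mitochondrial messengers, read 715 and 683 in Rictor-null and 465 and 461 in WT arrays (0.58, adjusted p = 1.07e-05). Polrmt, the polymerase itself, and Tfam, which packs mitochondrial DNA, were at -0.07 (adjusted p = 0.611) and -0.14 (adjusted p = 0.114).

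Of 35 genes with an Nduf symbol, most of which encode subunits of complex I, 27 rose (77.1%) and 0 fell, with a median log2 fold change of 0.31 against 0.25 for the mitoribosomal genes. Without Ndufa4, now known as a subunit of complex IV, and its paralog Ndufa4l2, 26 of 33 rose (78.8%), again with a median of 0.31. Ndufb2 had the largest value, 0.65, with 794 and 733 in Rictor-null arrays and 468 and 493 in WT arrays. Of 46 genes of cytosolic ribosomal proteins with a probe set of their own, 13 rose and 1 fell (28.3% and 2.17%), with a median of 0.05. The largest rise there was that of Rpl39l, a paralog, at 1.54, and the 1 lower gene was Rplp2 at -0.23. Rps4l and Rps27l, also paralogs, rose by 0.76 and 0.39, and Rps4l had a mean below the median intensity. Rpl14, Rps25, Rps6 and Rpl37 rose in probe sets with means of 145 to 656. The rest of those that rose, Rpl10a, Rpl11, Rpl35, Rpl41, Rps18 and Rps26, had means of 6550 or more and rose by 0.12 to 0.26. Some probe sets of the list read little, such as that of Rps16 with a mean of 5.68. At or above the median intensity, 20.1% of genes were called higher and 11.3% lower. Mean intensities reached 12434 among the cytosolic genes and 1502 among the mitoribosomal ones. Neither the difference between the 2 kinds of ribosome nor the part of intensity in it was tested.

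**Figure D4:**
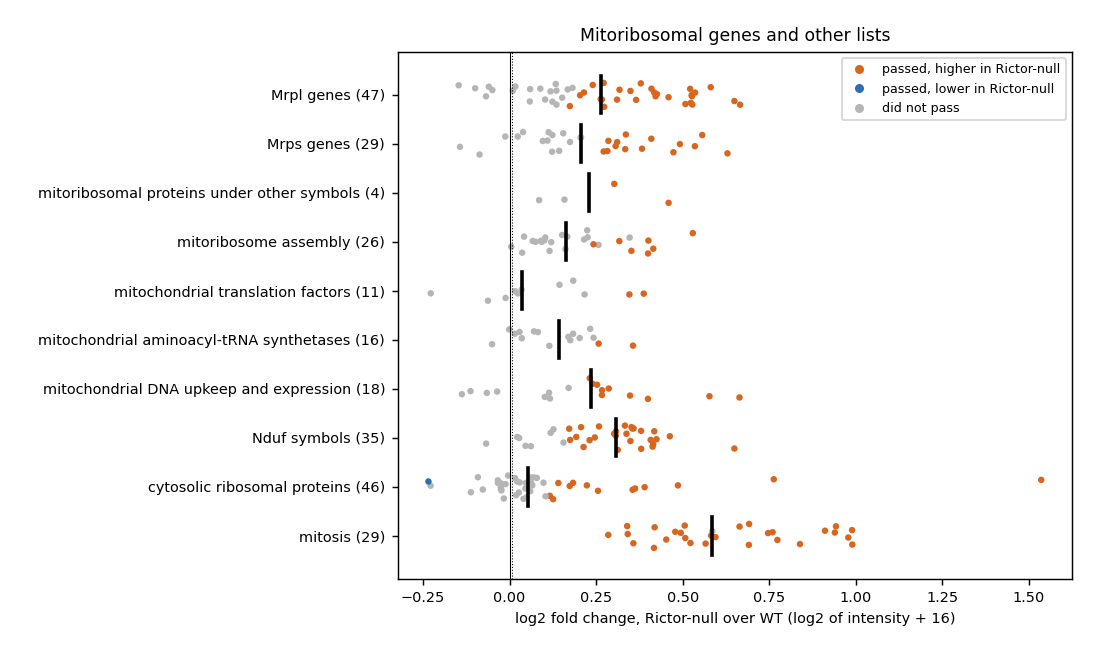
Log2 fold change, Rictor-null over WT (x axis, log2 of intensity + 16), of each measured gene in 10 lists, with the number of genes in brackets, the median of each list as a black bar and the median of all genes as a dotted line. Orange and blue points passed as higher or lower, grey ones did not, and the bars stand at 0.26 for Mrpl, 0.21 for Mrps, 0.31 for Nduf genes, 0.05 for cytosolic ribosomal proteins and 0.59 for mitosis genes.

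Genes of dividing cells and of other cell types differed between the groups too. Over all genes 12.5% were called higher and 7.19% lower, and 20.1% and 11.3% of those at or above the median intensity. Of 29 mitosis genes, 28 rose and 0 fell, with a median log2 fold change of 0.59 and summed intensities of 7220.4 and 7244 in Rictor-null arrays and 4642 and 4549 in WT arrays. Of 7 measured B cell and plasma cell markers 4 rose and 0 fell, with sums of 566 and 524 in Rictor-null and 235 and 225 in WT arrays, of which Jchain, the joining chain of secreted antibody, made up the most. Jchain, Mzb1, Cd79b and Pax5 were at log2 fold changes of 1.49, 0.88, 0.40 and 0.22, and Ms4a1, Cd79a and Sdc1 did not pass, at -0.06, 0.05 and 0.05. Cd79b read 33.5 and 29.8 in Rictor-null and 20.0 and 20.3 in WT arrays, and Ms4a1, Cd79a, Sdc1 and Pax5 had means below the median intensity. Of 8 myeloid markers 3 rose (Lyz2, Itgam and Tyrobp, at 0.77, 0.64 and 0.41) and 0 fell, with sums of 433 and 398 in Rictor-null and 326 and 301 in WT arrays. Of 4 CD8 and NK markers 2 rose and 0 fell, with sums of 564 and 503 in Rictor-null and 251 and 242 in WT arrays. Klrk1, a receptor of NK and CD8 cells, read 391 and 344 in Rictor-null and 126 and 123 in WT arrays (1.45), and Cd8b1 read 139 and 123 in Rictor-null and 90.1 and 82.2 in WT arrays (0.53, adjusted p = 0.000605), while Cd8a and Ncr1 did not pass, at 0.0035 and -0.09. The part of these genes in the mitoribosomal result was not tested.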

How the data were processed

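Total RNA of sorted TFH cells was labelled as biotinylated cRNA and read on an Affymetrix mouse array, 1 array per sample. The deposited intensity values are on a linear scale and were used as the authors deposited them. MAS5 and RMA are both listed in the notes on processing. Neither a version nor which of them made the table is stated there. The 4 arrays had medians of 20.0 to 20.4, which does not tell how they had been scaled. Labels give at least 5 mice per sample and a legend 6 Rictor-null and 4 WT mice per group, which nothing settles. With 4 arrays, their number limits the precision.

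Of 45037 probe sets, 34945 had 1 gene symbol, 932 had several and 9160 had none in the platform annotation. Symbols were checked by Entrez number against RefSeq (GRCm38.p6), found for 34741, and 0 changed. Each of 18193 genes took its brightest probe set. Values became log2(intensity + 16) and were fitted with limma 3.58.1 in R 4.3.3 (lmFit, eBayes with a trend), with Benjamini-Hochberg adjustment over all genes and a threshold of 0.05. The steps were tested on simulated data. Genes below the median intensity were kept.

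Replicate numbers were not used as pairs, since the labels give them no shared origin. Members and lists were chosen with earlier results of these data known. Values of each array were set to be named for the 6 largest rises and falls that passed, up to 3 more in each direction per subunit, and 8 members with a known role. Other members and neighbours are named for what they do, a choice made with their values in view. The Mrpl or Mrps class follows the symbol, and the place by structure, and whether it is that of a bacterial ribosomal protein, follow the human mitoribosome. Alternatives were other scalings, another pseudocount, no dim genes, other probe set rules, no trend, the replicate block, each array left out, and the methods' test.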

Additional observations from a re-analysis of the deposited data

How the results depend on the processing

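The median of the members stayed above 0 in every alternative run. With a pseudocount of 1 all 76 members kept their call and direction. The lower members numbered 2 with median centring and with dim genes left out (1 Mrpl and 1 Mrps each) and 1 with quantile normalization (an Mrps gene), against 0. With the second brightest probe set, chosen after seeing the data, 1 Mrpl gene was lower. Leaving out each array in turn gave 24 to 45 members higher, 16 to 30 Mrpl and 8 to 15 Mrps genes. The replicate block gave 44 higher and 0 lower, with all 42 calls kept. Deviations of same-numbered arrays correlated at -0.03 over all genes and at -0.07 over genes at or above the median intensity. With 2 arrays per group, this cannot tell whether same-numbered arrays share an origin. The methods' t-test gave 47 higher and 3 lower members at an unadjusted p under 0.05 (2 Mrpl and 1 Mrps lower), and 0 after Benjamini-Hochberg adjustment, when limma without the trend called 39. Members near 0 turned direction. Mrpl19 was at -0.0010 with median centring and at -0.0089 with quantile normalization, and Mrpl27 at -0.0023 with quantile normalization too. With an array left out, Mrpl19 lay between -0.0025 and 0.0217, Mrps2 between -0.0641 and 0.0397, Mrpl10 between -0.138 and 0.0181, Mrpl9 between -0.157 and 0.0219, Mrps5 between -0.0058 and 0.0838, Mrps34 between -0.0162 and 0.0641 and Mrpl27 between -0.0375 and 0.0718. With the second brightest probe set Mrpl35 was at -0.0121, Mrpl42 at -0.11, Mrpl33 at -0.0729, Mrps11 at -0.10, Mrpl57 at -0.0648, Mrps2 at 0.0104, Mrpl9 at 0.0603 and Mrpl54 at 0.0943. The cause of these changes was not tested.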
